A study of Homo sapiens with 9 samples.

Results

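Histone genes were followed as a group in HT29, an established line of human colorectal adenocarcinoma: the clustered replication-dependent genes and the genes of histone variants. Members were the rows of the deposited tables whose older gene symbol begins with HIST1H to HIST4H, H2AF or H3F3, or is H1F0 or H1FX. They came to 25 of the 11664 gene names listed, 16 replication-dependent and 9 variant. RNA was sequenced from 9 libraries in 3 groups of 3. The first group received conditioned media (CM) of the CRC-MPS for 24 h, the second received CM of stromal cells alone (ESC) for 24 h, and the control group was kept without serum for 24 h and received no CM. The CRC-MPS is a co-culture in which epiploic adipose tissue (EPAT) and cancer cells lie between sheets of EPAT-derived stromal cells. The study reports that the CRC-MPS behind the sequenced cells held EPAT of obese donors. The study's methods state that cancer cells were starved of serum before treatments, overnight and, to synchronize their cycle, for several days. The labels give starvation for the control libraries only. By the same methods both CM came from cultures whose medium held serum, which the control medium lacked, and were diluted in serum-free medium. The effect of serum and that of other factors in CM therefore cannot be told apart against control. All libraries came from a single cell line. Nothing in the labels says that the replicates were separate cultures beyond their numbering as biological replicates, and p-values measure the spread between these libraries.

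Values are TPM, a transcript abundance that divides reads by transcript length and by the library's total and so allows levels of different genes to be compared. The tables leave out every gene whose unadjusted p reached 0.05 when the authors tested it, so a histone gene missing from a table is called not listed, and nothing is said of its level there. A gene was called higher or lower when limma on log2(TPM + 0.5) gave an adjusted p under 0.05 over 25000 genes and a fitted fold over 1.5. Unadjusted p-values counted further on are those of limma, not of the authors' test. Fold changes are on that scale of log2(TPM + 0.5) and understate the change of genes near or under 1 TPM. In bulk RNA, a different number of cells that express a gene and a different amount of its RNA per cell cannot be told apart.

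Replication-dependent histone genes supply the core and linker histones that package newly copied DNA, and their messages are made mainly in S phase. Most of these messages carry no poly(A) tail: they end just after a short stem-loop that the protein SLBP binds, and they are degraded when DNA synthesis stops. Variant histones are encoded by single genes outside the clusters, give polyadenylated messages throughout the cell cycle, and replace the clustered histones at promoters, at sites of DNA damage or at centromeres. Some clustered genes can also run past the stem-loop to a poly(A) site, mostly in cells that divide little.

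Most of the listed replication-dependent genes carry the stem-loop in their annotation. In GENCODE 29 transcripts on hg38, 12 of the 16 listed replication-dependent genes hold a 16-base stem-loop within their annotated transcript, and H2AFX is the only variant gene that holds one. The sites are shown for genes whose levels are described next, with the stem-loop in capitals and 5 flanking bases on each side.
HIST2H2BE: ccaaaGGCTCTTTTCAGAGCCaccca
HIST1H2AC: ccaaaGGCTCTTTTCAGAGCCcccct
HIST3H2A: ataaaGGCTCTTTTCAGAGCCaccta
HIST1H3G: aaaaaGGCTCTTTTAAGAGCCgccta
HIST1H4I: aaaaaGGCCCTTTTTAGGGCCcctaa
H2AFX: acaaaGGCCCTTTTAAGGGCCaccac
The first 3 share the same 16 bases although the genes encode an H2B and a pair of H2A proteins. The annotated transcripts do not all end there. In HIST2H2BE the longest model runs 1729 bases past the stem-loop, in HIST1H2AC 1128 bases, and in H2AFX 1044 bases. Of the 16 listed replication-dependent genes, 10 (62.5%) had a model with over 100 bases after the stem-loop, against 13 (23.6%) of the 55 protein-coding replication-dependent genes that no table lists. Only 20 of these 55 held a stem-loop within their model at all, against 12 of the 16 listed. The lower share among the 55 thus includes genes with no stem-loop in the model. The median longest transcript was 1414 bases for the listed genes and 411 bases for the others. These shares describe the annotation, and the sources used here do not say whether the libraries were selected for poly(A).

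Of the replication-dependent protein-coding genes in GENCODE 29, 16 of 71 were listed in at least 1 table, as were 9 of 14 variant genes. None of 34 histone pseudogenes and non-coding histone genes was listed. The tables for CRC-MPS CM and for ESC CM against control listed 13 and 14 replication-dependent genes and 6 and 7 variant genes, and the table between the CM listed 4 of each kind. With CRC-MPS CM against control, 6 of the 13 replication-dependent genes were higher and 5 lower, where 22.1% of all 10019 listed genes were called higher and 23.4% lower (45.4% either way). With ESC CM against control, 5 of the 14 were higher and 8 lower, where 19.3% of all 10007 listed genes were called higher and 23.3% lower (42.7% either way). Between the CM, 1 of 4 was higher and none lower with CRC-MPS CM, where 0.988% of all 2835 listed genes were called higher and 0.212% lower (1.2% either way). The variant genes called were higher: 2 of 6 with CRC-MPS CM and 2 of 7 in ESC CM, both against control. With no minimum fold, 12 of 13 replication-dependent genes passed the adjusted p with CRC-MPS CM and 14 of 14 in ESC CM, where 81.2% and 83.1% of all listed genes did. The groups did not overlap in 12 and 14 of them, against 89.4% and 90.6% of all listed genes, shares close to the members' own. Both comparisons with control use the same control libraries.

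**Figure D1:**
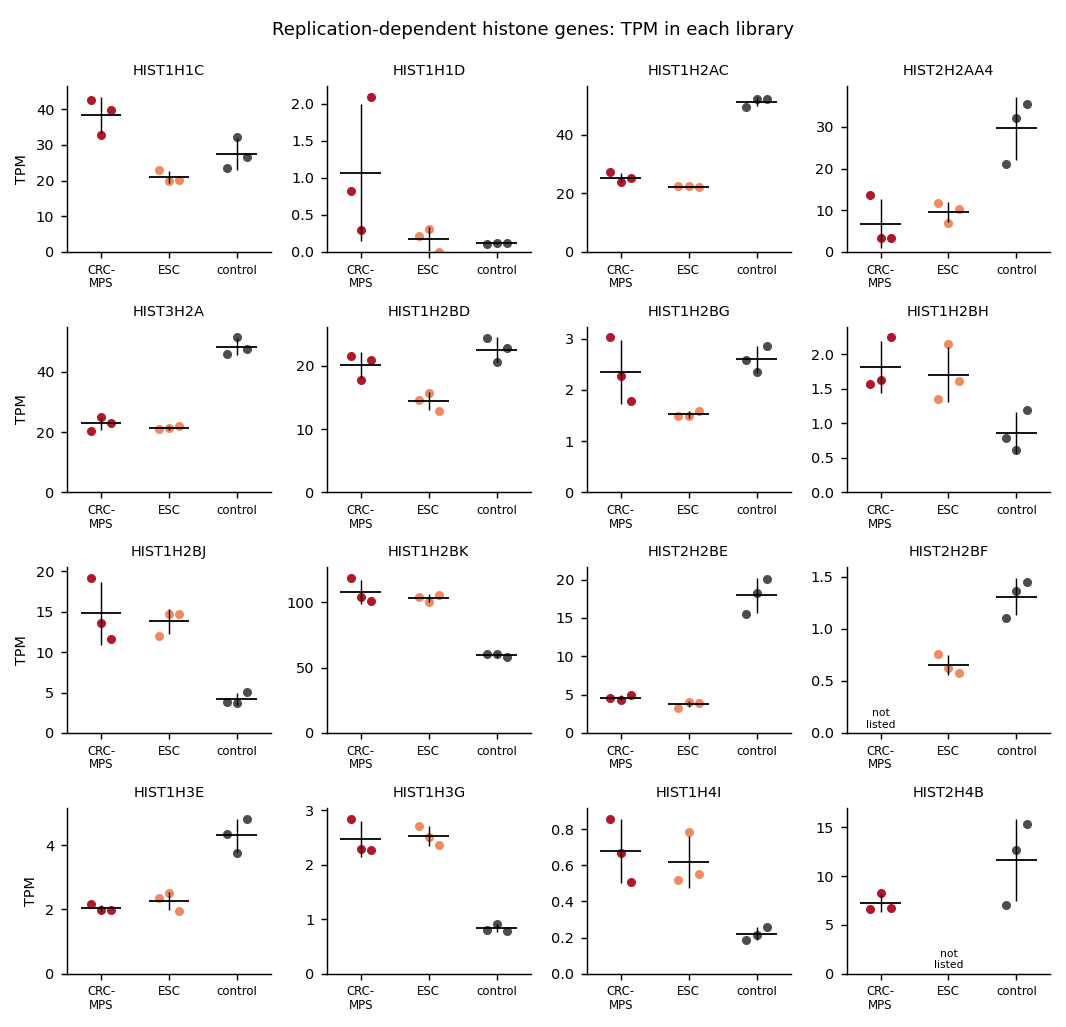
TPM (y axis, linear, from 0) of the 16 listed replication-dependent histone genes in each library, with CRC-MPS CM, ESC CM and control from left to right. Points are libraries, horizontal lines means and vertical lines SD (n = 3), and "not listed" marks a group with no value; HIST1H2BK stands at 101 to 119 TPM with CRC-MPS CM and at 57.9 to 60.6 TPM in control, while HIST2H2BE stands at 4.29 to 4.92 TPM and at 15.6 to 20.1 TPM.

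Clustered H2B genes moved in both directions. HIST1H2BK, which encodes an H2B of the HIST1 cluster and was the most abundant replication-dependent gene listed, had 119, 104 and 101 TPM with CRC-MPS CM, against 60.6, 60.5 and 57.9 TPM in control. It rose by a log2 fold change of 0.85 (SE 0.07, adjusted p = 2.85e-05). With ESC CM it had 104, 100.2 and 106 TPM and rose by 0.78 (SE 0.05, adjusted p = 8.75e-06). No library of either CM overlapped the control libraries. The annotated HIST1H2BK transcript covers only its coding part, and 86.3% of its stretches of 31 bases occur in other genes, mostly in the H2B gene H2BFS, so its reads could have been split between copies. H2BFS itself was called higher and averaged 7.67 ± 0.425 TPM with CRC-MPS CM and 4.23 ± 1.23 TPM in control (SD, n = 3 each). HIST1H2BJ, near HIST1H2BK in the cluster, showed the largest fitted rise of a replication-dependent gene in both comparisons with control. With a pseudocount of 0.1 the rise of HIST1H1D, a gene near or under 1 TPM, was larger with CRC-MPS CM (2.11, against 1.78 for HIST1H2BJ). HIST1H2BJ had 19.1, 13.6 and 11.7 TPM with CRC-MPS CM, against 3.80, 3.73 and 5.08 TPM in control (log2 fold change 1.68, SE 0.19, adjusted p = 1.23e-04). ESC CM libraries had 11.9, 14.7 and 14.7 TPM (log2 fold change 1.6, SE 0.14, adjusted p = 4.09e-05). HIST1H2BH, at lower levels, had 1.56, 1.62 and 2.24 TPM with CRC-MPS CM, against 0.782, 0.608 and 1.20 TPM in control (log2 fold change 0.77, SE 0.19, adjusted p = 0.0104). In the ESC CM libraries it had 1.35, 2.15 and 1.62 TPM (log2 fold change 0.71, SE 0.20, adjusted p = 0.0213). This last call was lost without ESC CM replicate 2 (adjusted p = 0.0855) or 3 (adjusted p = 0.0506) and without control replicate 1 (adjusted p = 0.0657) or 2 (adjusted p = 0.0781). With a pseudocount of 1 in place of 0.5 it missed the fold threshold (0.54).

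HIST2H2BE, an H2B gene of the HIST2 cluster on chromosome 1, went the other way and was the most reduced gene of the class with ESC CM. It had 4.50, 4.29 and 4.92 TPM with CRC-MPS CM, against 15.6, 18.2 and 20.1 TPM in control, so that it stood at 0.255 of the control mean (log2 fold change -1.86, SE 0.12, adjusted p = 8.74e-06). With ESC CM it had 3.31, 4.02 and 3.97 TPM, which was 0.211 of the control mean (log2 fold change -2.10, SE 0.12, adjusted p = 6.96e-06). The other H2B genes that fell were called with ESC CM only, and the direct comparison of the CM is given further on for HIST1H2BD and HIST1H2BG, while HIST2H2BF was not listed there. HIST1H2BD had 14.6, 15.8 and 12.9 TPM with ESC CM, against 24.4, 20.5 and 22.8 TPM in control (log2 fold change -0.63, SE 0.10, adjusted p = 0.00111). HIST1H2BG averaged 1.52 ± 0.0610 TPM with ESC CM and 2.59 ± 0.255 TPM in control, and HIST2H2BF 0.652 ± 0.0967 TPM and 1.31 ± 0.180 TPM (SD, n = 3 each). The fitted changes of HIST1H2BD, HIST1H2BG and HIST2H2BF (-0.65, SE 0.14, adjusted p = 0.00528 by limma) lie just past the fold threshold. With a pseudocount of 1 in place of 0.5, HIST1H2BG (-0.51) and HIST2H2BF (-0.48) fell short of it. HIST1H2BD fell short of the threshold without ESC CM replicate 3 (-0.56) or control replicate 1 (-0.57), and HIST1H2BG without control replicate 3 (-0.55).

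The promoters of most of these H2B genes hold the same element, among genes that rose and among genes that fell. The octamer ATTTGCAT, the sequence that the factor OCT1 binds in H2B promoters, was searched on both strands in the 250 bases before each start site in RefSeq (GRCh38.p14), where 24 of the 25 members had a promoter. It was found in 6 of the 7 listed H2B genes, all but HIST1H2BD, in 1 of the 9 other replication-dependent genes (HIST1H2AC) and in 1 of 8 variant genes (H3F3B), against 1.63% of 35116 promoter windows of this length. The promoter of HIST1H2BJ, which rose, and that of HIST2H2BE, which fell, are given with the octamer, CCAAT and TATAAA in capitals, on either strand (ATGCAAAT and ATTGG are the octamer and CCAAT read on the opposite strand).
HIST1H2BJ, chr6:27132796-27133045, strand -: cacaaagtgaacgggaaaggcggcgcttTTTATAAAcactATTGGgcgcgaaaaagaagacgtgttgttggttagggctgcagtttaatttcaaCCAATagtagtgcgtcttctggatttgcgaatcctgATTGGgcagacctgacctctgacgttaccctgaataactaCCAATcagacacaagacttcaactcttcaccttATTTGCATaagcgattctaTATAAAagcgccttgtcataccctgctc
HIST2H2BE, chr1:149886683-149886932, strand -: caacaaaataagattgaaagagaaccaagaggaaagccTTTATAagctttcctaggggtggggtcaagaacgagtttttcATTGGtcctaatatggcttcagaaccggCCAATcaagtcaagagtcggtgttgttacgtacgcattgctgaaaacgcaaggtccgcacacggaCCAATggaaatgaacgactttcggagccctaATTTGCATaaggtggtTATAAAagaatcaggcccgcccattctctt
The octamer begins 47 bases before the start in HIST1H2BJ and 46 bases before it in HIST2H2BE. CCAAT, searched on both strands, was present in 7 of the 7 H2B genes, 8 of the 9 other replication-dependent genes and 7 of 8 variant genes, against 32.0% of windows. TATAAA, also on both strands, was present in 5, 4 and 4 of these genes, against 10.7% of windows. Its opposite strand reads TTTATA, which can overlap it, and a match is a description of the sequence only.

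The 3 listed clustered H2A genes all fell against control with either CM. HIST1H2AC, an H2A gene, had 27.1, 23.9 and 25.1 TPM with CRC-MPS CM, against 49.5, 52.2 and 52.2 TPM in control (log2 fold change -1.0, SE 0.08, adjusted p = 1.47e-05). ESC CM libraries had 22.5, 22.3 and 22.0 TPM (log2 fold change -1.18, SE 0.06, adjusted p = 3.67e-06). HIST3H2A, the H2A gene of the small HIST3 cluster, stood close to it at 20.5, 25.0 and 23.2 TPM with CRC-MPS CM, against 46.0, 51.5 and 47.8 TPM in control (log2 fold change -1.07, SE 0.09, adjusted p = 2.72e-05). In the ESC CM libraries it had 20.9, 21.3 and 22.2 TPM (log2 fold change -1.15, SE 0.07, adjusted p = 6.16e-06). In both genes every CM library lay under every control library. HIST2H2AA4, which encodes an H2A and has a near-identical copy, HIST2H2AA3, with which it shares 97.2% of its stretches of 31 bases, had 13.6, 3.37 and 3.44 TPM with CRC-MPS CM, against 21.1, 32.3 and 35.6 TPM in control. Its fitted log2 fold change was -2.30 (SE 0.45, adjusted p = 0.00294) with the libraries of CRC-MPS CM spread widely, and with ESC CM, at 11.6, 6.96 and 10.4 TPM, it was -1.56 (SE 0.23, adjusted p = 6.54e-04). The values of HIST2H2AA4 are uncertain because reads of the copies may have been divided between them.

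H3 and H4 genes were listed at low levels and did not share a direction. HIST1H3G and HIST1H3E both encode the replication-dependent histone H3.1. HIST1H3G had 2.84, 2.29 and 2.26 TPM with CRC-MPS CM, against 0.801, 0.917 and 0.777 TPM in control (log2 fold change 1.15, SE 0.13, adjusted p = 1.60e-04). With ESC CM it had 2.71, 2.51 and 2.36 TPM (log2 fold change 1.19, SE 0.12, adjusted p = 8.80e-05). HIST1H3E, in contrast, had 2.16, 1.97 and 1.98 TPM with CRC-MPS CM, against 4.36, 3.76 and 4.81 TPM in control (log2 fold change -0.92, SE 0.13, adjusted p = 4.83e-04), and with ESC CM 2.35, 2.51 and 1.94 TPM (log2 fold change -0.79, SE 0.14, adjusted p = 0.00170). HIST1H4I, an H4 gene under 1 TPM in every library, had 0.860, 0.669 and 0.506 TPM with CRC-MPS CM, against 0.188, 0.215 and 0.258 TPM in control (log2 fold change 0.70, SE 0.15, adjusted p = 0.00458). ESC CM libraries had 0.520, 0.785 and 0.551 TPM (log2 fold change 0.63, SE 0.14, adjusted p = 0.00721), and this change missed the fold threshold without ESC CM replicate 2 (0.53). With a pseudocount of 1 in place of 0.5 its changes were 0.45 with CRC-MPS CM and 0.40 in ESC CM, under the fold threshold. HIST2H4B, which shares 97.2% of its stretches of 31 bases with HIST2H4A, had 6.66, 8.30 and 6.73 TPM with CRC-MPS CM, against 7.06, 12.7 and 15.3 TPM in control, and the groups overlapped (adjusted p = 0.10, and 0.00228 without control replicate 1).

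By position, the 3 listed genes in the 27 Mb part of the HIST1 cluster on chromosome 6 (HIST1H2BJ at chr6:27125897-27132750, HIST1H4I at chr6:27138588-27139881 and HIST1H2BK at chr6:27146418-27146798, hg38) were called higher against control with either CM. On chromosome 1, the called members were lower: 2 of the 3 listed HIST2 genes with CRC-MPS CM and 3 of 3 in ESC CM, besides HIST3H2A. The 26 Mb part of the HIST1 cluster held both, with 3 genes higher and 2 lower of 6 listed with CRC-MPS CM, and 2 higher and 4 lower of 7 listed with ESC CM. This grouping was made after the values were seen and was given no test. Strand was not stated for the counting, so reads of overlapping antisense transcripts cannot be told apart from those of these genes.

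**Figure D2:**
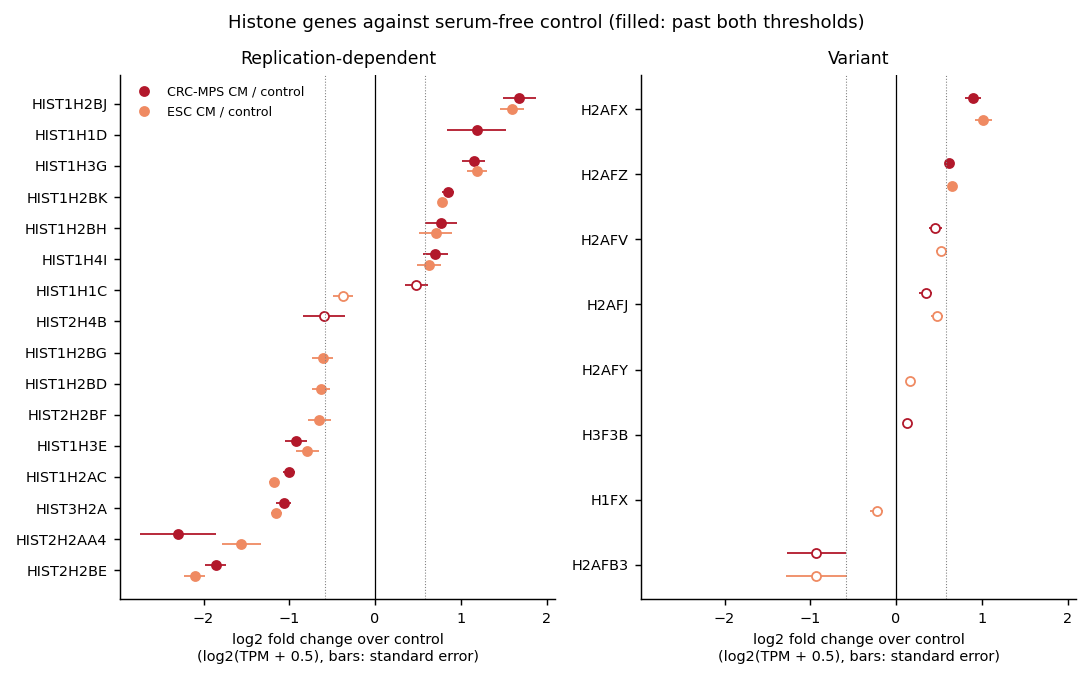
Fitted log2 fold change over control (x axis, log2(TPM + 0.5), bars are standard errors) of each listed histone gene with CRC-MPS CM (dark red) and ESC CM (orange), replication-dependent genes on the left and variants on the right. Filled points passed an adjusted p under 0.05 and a fold over 1.5 (dotted lines); replication-dependent genes extend from HIST1H2BJ, at 1.68 with CRC-MPS CM and at 1.6 in ESC CM, down to HIST2H2AA4 at -2.30 with CRC-MPS CM and HIST2H2BE at -2.10 with ESC CM, while the called variants are H2AFX and H2AFZ.

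The linker histone HIST1H1C was the only histone gene called between the CM. It encodes H1.2, one of the main somatic H1 proteins that bind the DNA between nucleosomes. HIST1H1C had 42.7, 32.8 and 39.7 TPM with CRC-MPS CM, against 22.8, 20.0 and 20.1 TPM with ESC CM, a mean 1.83 times as high (log2 fold change 0.85, SE 0.11, adjusted p = 0.0272). Control libraries had 23.4, 32.2 and 26.5 TPM, so every CRC-MPS CM library lay above every control library and every ESC CM library below them all. In these comparisons with control, groups did not overlap in 89.4% and 90.6% of all listed genes. Against control the change was 0.48 with CRC-MPS CM (SE 0.13, adjusted p = 0.0188) and -0.37 with ESC CM (SE 0.12, adjusted p = 0.0383), and neither reached the fold threshold. The call between the CM was kept in 10 of 17 alternatives. It was lost without CRC-MPS CM replicate 3 (adjusted p = 0.104) and without ESC CM replicate 1, 2 or 3 (adjusted p = 0.0655, 0.145 and 0.102). It was lost as well with no trend of the variance on the level (adjusted p = 0.0586), under median-ratio scaling (log2 fold change 0.76, adjusted p = 0.0575) and with a minimum fold of 2, and the log2 fold change kept within 0.74 and 0.96 throughout. RN7SK, an abundant small nuclear RNA with no poly(A) tail, had 53.3, 32.0 and 29.3 TPM with CRC-MPS CM, against 21.1, 20.4 and 22.0 TPM with ESC CM in the same table, and was not called. In the table against control RN7SK had 20.8, 20.4 and 21.8 TPM with ESC CM, against 44.4, 32.2 and 41.8 TPM in control. Its part in the values of HIST1H1C was not tested.

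Other replication-dependent genes listed between the CM were not called. HIST1H1D, which encodes the linker histone H1.3, had 0.817, 0.301 and 2.10 TPM with CRC-MPS CM, against 0.213, 0.312 and 0 TPM with ESC CM, and the groups overlapped (log2 fold change 1.08, SE 0.38, adjusted p = 0.442). Against control, where it had 0.106, 0.122 and 0.117 TPM, HIST1H1D was called higher with CRC-MPS CM (log2 fold change 1.18, SE 0.35, adjusted p = 0.0255). That call was lost without CRC-MPS CM replicate 1 (adjusted p = 0.0702) and without control replicate 1, 2 or 3 (adjusted p = 0.0674, 0.0723 and 0.0629), and it rests on values near or under 1 TPM. HIST1H2BD had 21.5, 17.7 and 20.9 TPM with CRC-MPS CM, against 14.6, 15.8 and 12.9 TPM with ESC CM (log2 fold change 0.46, SE 0.11, adjusted p = 0.211). HIST1H2BG had 3.02, 2.27 and 1.78 TPM, against 1.48, 1.49 and 1.59 TPM with ESC CM (log2 fold change 0.48, SE 0.17, adjusted p = 0.432). In HIST1H2BD and HIST1H2BG the groups did not overlap, as in 63.6% of all genes listed between the CM. The median log2 fold change of the 4 replication-dependent genes listed there was 0.67, against 0.15 over all listed genes.

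Among the variants, both genes of H2A.Z stood higher with either CM. H2A.Z replaces H2A in nucleosomes around active promoters, and H2AFZ and H2AFV encode its isoforms H2A.Z.1 and H2A.Z.2. H2AFZ, the most abundant histone gene listed, had 769, 790 and 763 TPM with CRC-MPS CM, against 512, 511 and 492 TPM in control (log2 fold change 0.62, SE 0.05, adjusted p = 1.90e-05). In the ESC CM libraries it had 781, 785 and 815 TPM (log2 fold change 0.65, SE 0.04, adjusted p = 7.53e-06). The rise with CRC-MPS CM was just past the fold threshold and fell to 0.58 under median-ratio scaling, below it. H2AFV had 325, 329 and 317 TPM with CRC-MPS CM, against 258, 237 and 213 TPM in control (log2 fold change 0.46, SE 0.07, adjusted p = 8.34e-04), and 339, 329 and 349 TPM with ESC CM (log2 fold change 0.53, SE 0.07, adjusted p = 3.18e-04). H2AFV passed the adjusted p in both comparisons and the fold threshold in neither, and in ESC CM it passed both without control replicate 1 (0.59).

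H2AFX rose more than any other variant. It encodes H2A.X, the histone phosphorylated around DNA breaks, and it is made in both ways, with the stem-loop shown before and with a longer polyadenylated message. H2AFX had 216, 210.5 and 196 TPM with CRC-MPS CM, against 122, 119 and 94.6 TPM in control (log2 fold change 0.90, SE 0.10, adjusted p = 9.32e-05). With ESC CM it had 227, 207 and 242 TPM (log2 fold change 1.02, SE 0.10, adjusted p = 6.87e-05). H2AFJ, which encodes H2A.J, a variant known to accumulate in senescent cells, had 110.5, 107 and 103 TPM with CRC-MPS CM, against 76.3, 86.2 and 89.9 TPM in control (log2 fold change 0.34, SE 0.07, adjusted p = 0.00487). ESC CM libraries had 111, 118 and 122 TPM (log2 fold change 0.47, SE 0.07, adjusted p = 6.63e-04), in each case short of the fold threshold.

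The remaining variants were not called. H2AFY, which encodes macroH2A1, a large H2A of silent chromatin, had 422, 409 and 430 TPM with ESC CM, against 394, 379 and 357 TPM in control (log2 fold change 0.16, SE 0.05, adjusted p = 0.0311), and was not listed with CRC-MPS CM. H3F3B, a gene of the replacement histone H3.3, had 691, 682 and 677 TPM with CRC-MPS CM, against 593, 639 and 639.7 TPM in control (log2 fold change 0.13, SE 0.05, adjusted p = 0.0929). The linker variant H1FX had 97.7, 88.0 and 84.4 TPM with ESC CM, against 101, 115 and 100.1 TPM in control (log2 fold change -0.22, SE 0.08, adjusted p = 0.0499). H1F0, a linker variant that is typical of cells that have stopped dividing, was listed between the CM only. It had 275, 257 and 273 TPM with CRC-MPS CM, against 252, 250.3 and 216 TPM with ESC CM (log2 fold change 0.17, SE 0.07, adjusted p = 0.616). H2AFB3, whose product H2A.B is best known from testis, was at or under 5.39e-06 TPM in every CM library and at 0, 0.575 and 1.11 TPM in control. It shares 99.3% of its stretches of 31 bases with its copies, no fold is given for it, and it was not called (adjusted p = 0.0742 with CRC-MPS CM and 0.0866 in ESC CM).

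Between the CM, none of the 4 variants listed was called by limma, and 2 had an unadjusted limma p under 0.05. H2AFX averaged 207 ± 9.95 TPM with CRC-MPS CM and 225 ± 17.7 TPM with ESC CM (SD, n = 3 each, log2 fold change -0.12, SE 0.07, adjusted p = 1). H2AFV averaged 324 ± 6.10 TPM and 339 ± 9.71 TPM (log2 fold change -0.07, SE 0.05, adjusted p = 1), and H1FX 101 ± 4.01 TPM and 89.8 ± 6.70 TPM (log2 fold change 0.17, SE 0.07, adjusted p = 0.596). The median log2 fold change of these 4 variants was 0.05. The tests that miss the threshold do not show that the levels were equal.

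**Figure D3:**
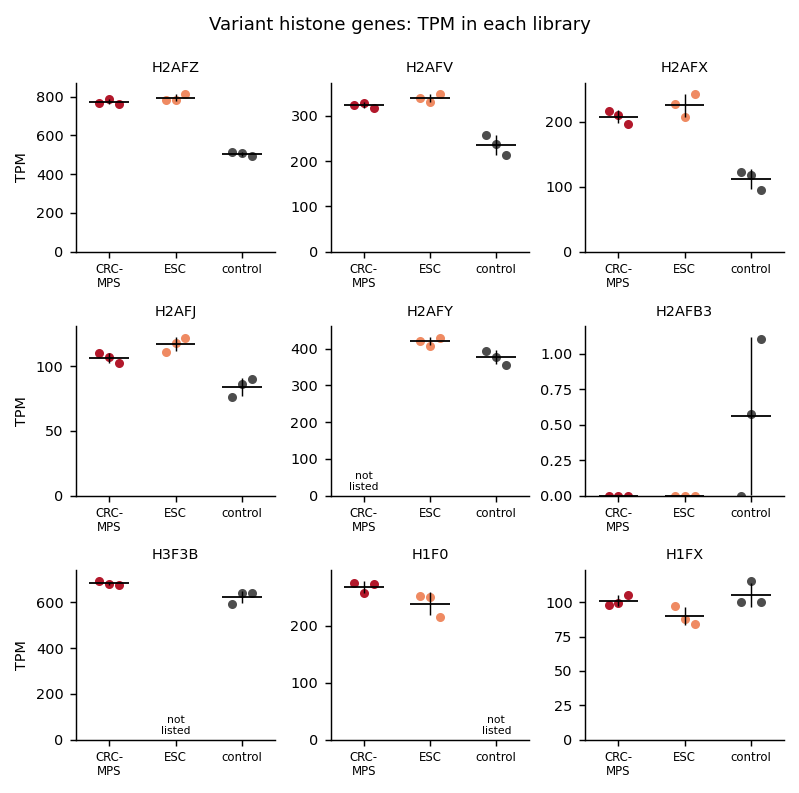
TPM (y axis, linear, from 0) of the 9 listed variant histone genes in each library, with CRC-MPS CM, ESC CM and control from left to right. Points are libraries, horizontal lines means and vertical lines SD (n = 3); H2AFZ stands at 763 to 790 TPM with CRC-MPS CM, 781 to 815 TPM with ESC CM and 492 to 512 TPM in control, and H2AFB3 is near 0 in all libraries with CM.

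Within each class, only the genes listed in both tables against control were summed, so that each library was summed over the same genes. The 11 replication-dependent genes summed to 214 to 254 TPM with CRC-MPS CM, 197 to 205 TPM with ESC CM and 226 to 256 TPM in control. The ranges of CRC-MPS CM and control overlap, while ESC CM lies below control. Within these sums the parts differ: the 4 H2B genes came to 120.0 to 144 TPM with CRC-MPS CM, 121 to 126 TPM with ESC CM and 80.8 to 84.2 TPM in control. The 3 H2A genes came to 51.7 to 61.3 TPM with CRC-MPS CM, 50.6 to 55.1 TPM with ESC CM and 117 to 136 TPM in control. The ratio of H2B to H2A was 2.32 to 2.37 with CRC-MPS CM, 2.20 to 2.39 with ESC CM and 0.611 to 0.693 in control, with HIST1H2BK making up most of the H2B sum. That sum leaves out HIST1H2BD, HIST1H2BG and HIST2H2BF, called lower with ESC CM and not listed with CRC-MPS CM against control. The 4 variants other than H2AFX summed to 1182 to 1226 TPM with CRC-MPS CM, 1232 to 1286 TPM with ESC CM and 796 to 846 TPM in control. Their ratio to the replication-dependent sum was 4.75 to 5.74 with CRC-MPS CM, 6.02 to 6.26 with ESC CM and 3.16 to 3.74 in control. H2AFZ made up most of the variant sum. That sum leaves out H3F3B, H2AFY, H1FX and H1F0, which were not listed in both comparisons with control. H3F3B averaged 683 TPM with CRC-MPS CM and 624 TPM in control. With ESC CM and control, H2AFY averaged 420 and 377 TPM, and H1FX 90.1 and 105 TPM. The ratio to the replication-dependent sum therefore depends on which variants were listed. These sums are descriptions over genes that entered through the tables' own selection and carry no test. The median log2 fold change against control of the replication-dependent genes was 0.48 with CRC-MPS CM (13 genes) and -0.62 with ESC CM (14 genes), against -0.02 and -0.05 over all listed genes. Because the 2 tables list different members, these medians do not compare the CM. For the variants it was 0.40 (6 genes) and 0.47 (7 genes).

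**Figure D4:**
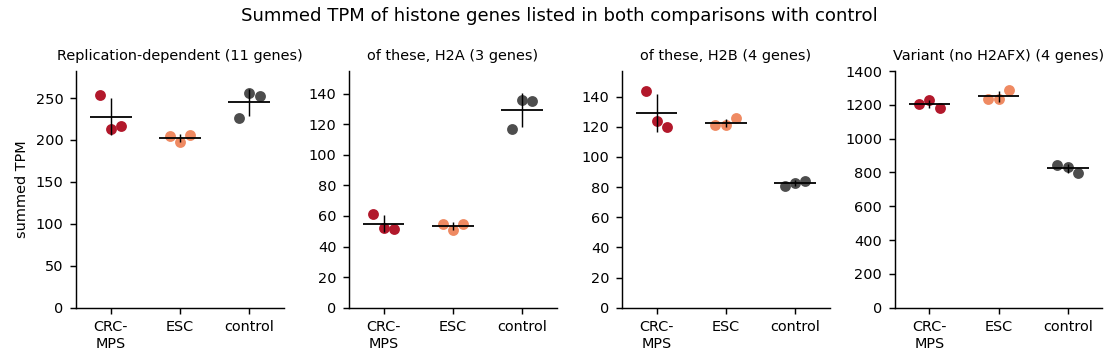
Summed TPM (y axes, linear, from 0) in each library over the histone genes listed in both tables against control: 11 replication-dependent genes, the 3 H2A and the 4 H2B genes among them, and 4 variants other than H2AFX, with CRC-MPS CM, ESC CM and control from left to right. Points are libraries, horizontal lines means and vertical lines SD (n = 3); the H2A sums with either CM (50.6 to 61.3 TPM) lie below control and the H2B sums (120.0 to 144 TPM) above it.

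Among genes that make, process and deliver histones, all those called against control were higher with either CM. A list of 52 such genes was examined, with roles from transcription of histone genes to centromere loading. With CRC-MPS CM against control 44 were listed, of which 26 were higher and none lower by limma (40 and 3 at an unadjusted p under 0.05), where 22.1% of all listed genes were called higher. With ESC CM 45 were listed, 29 higher and none lower (41 and 3 at an unadjusted p under 0.05), where the share was 19.3%. The median log2 fold change was 0.69 with CRC-MPS CM and 0.72 in ESC CM, against -0.02 and -0.05 over all listed genes. Between the CM, 9 were listed and none was called by limma, with 4 at an unadjusted p under 0.05 (1 higher, 3 lower).

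In the machinery of histone messages, 9 of 15 listed genes were higher with CRC-MPS CM and 11 of 16 in ESC CM. Of all listed genes, 22.1% and 19.3% were called higher. This role also holds the cell cycle genes CDK2, CCNE1 and CCNE2, and CCNE1 and CCNE2 were among those called with CRC-MPS CM. SLBP, which binds the stem-loop, averaged 145 ± 4.17 TPM with CRC-MPS CM and 81.2 ± 4.05 TPM in control (SD, n = 3 each, log2 fold change 0.83, adjusted p = 1.31e-05). NPAT, the coactivator of clustered histone genes at histone locus bodies, averaged 18.2 ± 1.20 TPM and 11.1 ± 0.533 TPM, and CASP8AP2 (FLASH), which joins the processing complex, 14.6 ± 2.75 TPM and 7.12 ± 0.689 TPM. CSTF2, a subunit of the cleavage factors, averaged 69.6 ± 3.60 TPM with CRC-MPS CM and 34.2 ± 1.21 TPM in control. POU2F1, which encodes the octamer factor OCT1, was called higher with ESC CM, at 8.06 ± 0.807 TPM against 4.96 ± 0.269 TPM in control (log2 fold change 0.65, adjusted p = 0.00162). With CRC-MPS CM POU2F1 reached 0.51 (adjusted p = 0.00614), short of the fold threshold. HINFP and SYMPK, of the same role, were lower with CRC-MPS CM and also short of it. Their log2 fold changes were -0.29 (adjusted p = 0.0432 by limma) and -0.46 (adjusted p = 0.00274).

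Of the 12 listed chaperone genes whose products deliver histones to newly copied DNA, 8 were higher with CRC-MPS CM and 9 in ESC CM. The shares over all listed genes were 22.1% and 19.3%. HAT1, the acetyltransferase of new H4, averaged 121 ± 7.49 TPM with CRC-MPS CM and 36.3 ± 6.41 TPM in control (SD, n = 3 each), the largest change of this role at a log2 fold change of 1.74. NASP, which holds soluble H3 and H4, averaged 288 ± 5.08 TPM and 119 ± 8.12 TPM, and CHAF1A, the large subunit of CAF-1, 28.0 ± 3.08 TPM and 11.8 ± 1.09 TPM. ASF1A, a carrier of H3 and H4, averaged 34.8 ± 2.51 TPM with CRC-MPS CM and 14.3 ± 1.18 TPM in control. Chaperones of H3.3 were called higher in 1 of 6 listed with CRC-MPS CM and 1 of 5 in ESC CM. These counts lie near the shares over all listed genes. ATRX, a remodeller that deposits H3.3, averaged 58.8 ± 8.26 TPM with CRC-MPS CM and 34.5 ± 2.04 TPM in control.

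Of the genes of H2A.Z exchange, 1 of 4 listed was higher with CRC-MPS CM and 1 of 5 in ESC CM. These counts lie near the 22.1% and 19.3% of all listed genes called higher. The gene called, ANP32E, which removes H2A.Z from nucleosomes, averaged 119 ± 11.6 TPM with CRC-MPS CM and 33.9 ± 2.36 TPM in control (SD, n = 3 each, log2 fold change 1.79, adjusted p = 2.69e-06). VPS72, an H2A.Z-binding subunit of the complexes that deposit it, averaged 74.8 ± 5.29 TPM and 96.0 ± 4.76 TPM and did not pass the fold threshold. All 7 listed genes of FACT and CENP-A loading were higher with CRC-MPS CM, and likewise 7 of 7 with ESC CM. CENPA, the H3 variant of centromeres, averaged 44.9 ± 1.85 TPM with CRC-MPS CM and 16.7 ± 4.31 TPM in control, and its chaperone HJURP 54.0 ± 2.66 TPM and 27.8 ± 3.10 TPM. SSRP1, a subunit of FACT, which moves H2A and H2B during transcription and replication, averaged 427 ± 33.6 TPM and 234 ± 16.2 TPM.

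**Figure D5:**
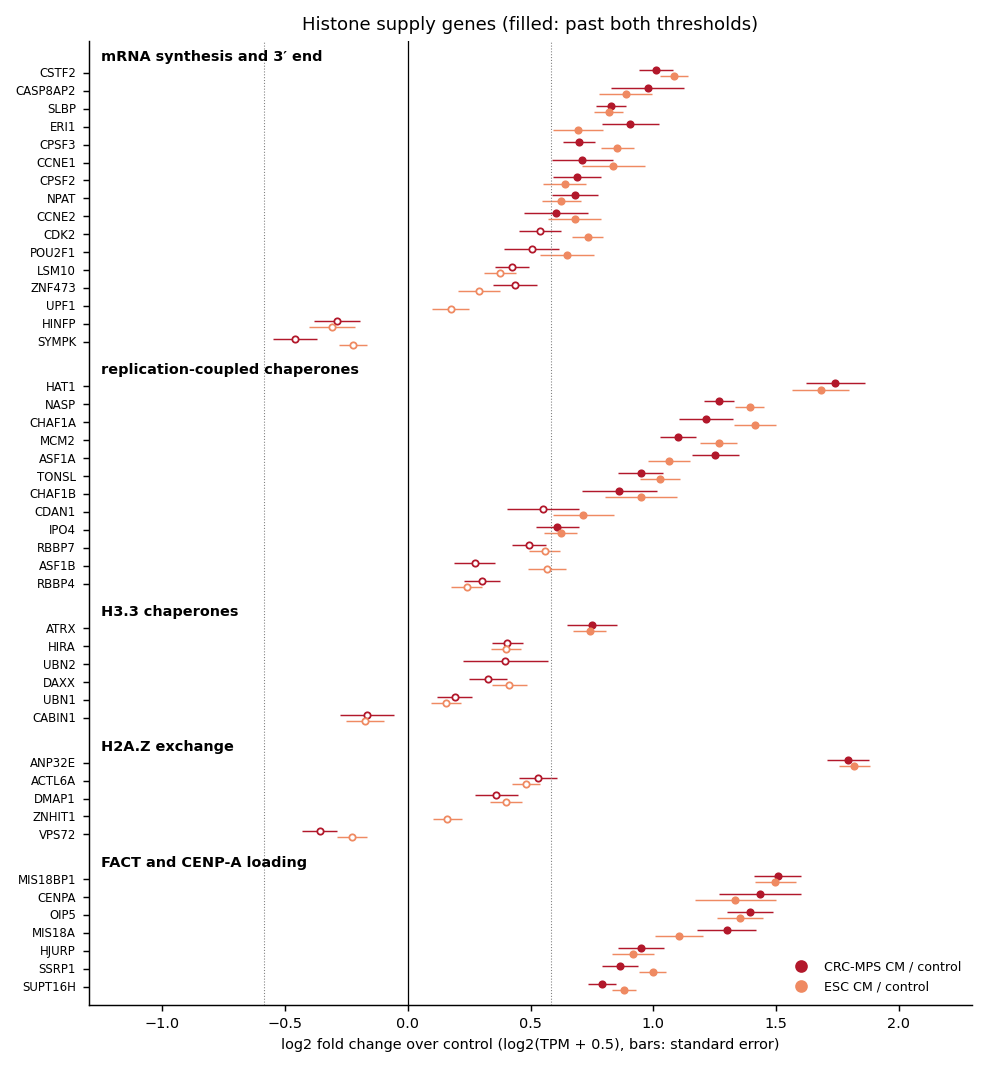
Fitted log2 fold change over control (x axis, log2(TPM + 0.5), bars are standard errors) of the listed histone supply genes in 5 roles, with CRC-MPS CM in dark red and ESC CM in orange. Filled points passed an adjusted p under 0.05 and a fold over 1.5 (dotted lines); 26 genes with CRC-MPS CM and 29 in ESC CM are filled, all to the right of 0.

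Other features of the libraries moved with the same groups. For the counts that follow, 22.1% of all listed genes were called higher and 23.4% lower with CRC-MPS CM against control. With ESC CM these shares were 19.3% and 23.3%. Of 16 S phase genes, 14 were higher with CRC-MPS CM and 14 in ESC CM against control and none was lower, with sums of 2211 to 2275 TPM with CRC-MPS CM against 1025 to 1251 TPM in control, while 8 were listed and none called by limma between the CM (5 at an unadjusted p under 0.05). RNA that normally lacks a poly(A) tail (small nucleolar RNAs, RN7SL2 and others) was listed for 10 genes with CRC-MPS CM against control, 8 higher and 1 lower, with sums of 335 to 433 TPM against 140.5 to 194 TPM. With ESC CM 9 were listed, 7 higher and 2 lower, with sums of 271 to 321 TPM against 168 to 206 TPM. Of 12 colon epithelial markers 11 were listed in each comparison with control, 1 higher and 6 lower. Of 6 adipocyte markers only CIDEC was listed, at 0.937 to 1.36 TPM with CRC-MPS CM and 0.655 to 1.90 TPM with ESC CM, against 2.99 to 4.35 TPM in control, and it was called lower with both. Of 8 stromal markers only COL1A1 was listed, with CRC-MPS CM, at 0.683 to 1.59 TPM against 1.10 to 2.61 TPM in control, and was not called. Of 5 leukocyte markers CD68 and LYZ were listed, with sums of 1678 to 1715 TPM with CRC-MPS CM and 1750.5 to 1808 TPM with ESC CM, against 1963 to 2252 TPM in control. CD68 was called lower with both CM, at 10.5 to 11.2 TPM with CRC-MPS CM against 22.1 to 24.9 TPM in control, and LYZ made up nearly all of the sum and was not called. Of 4 endothelial markers only VWF was listed, with ESC CM, at 0.00616 to 0.0180 TPM against 0.137 to 0.191 TPM in control, and was not called. The defining markers not listed have no value here. Their parts in the values of the histone genes were not tested.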

How the data were processed

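HT29 RNA was measured in 9 libraries, 3 per group. Tools named in the submitters' processing notes are STAR 2.6.1d, kallisto 0.46.0 and DESeq2 (version not given in the sources used here), with hg38 as the build and no annotation. The authors deposited 3 tables of TPM per library, 6 libraries each, holding only genes with p under 0.05 in their test. The header does not name the unit, and the values fit TPM. The tables' columns of the authors' own comparison (mean level, fold change, standard error, statistic, p and adjusted p) were not used. Read totals are unknown, so no interval from depth was computed.

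Members, lists and tests were chosen with earlier results of these data known. Each table was fitted by itself with limma 3.58.1 (R 4.3.3, intensity trend) on log2(TPM + 0.5), with no covariate. Since tables hold preselected genes, Benjamini-Hochberg adjustment in limma ran over 25000 genes, those not listed entering at the maximum, and calls needed an adjusted p under 0.05 and a fitted fold over 1.5, the looser of the thresholds the study names (its stricter ones were not applied). An exact permutation test of 3 against 3 libraries cannot go below p = 0.1. On simulated data with 200 genes changed by 2-fold, this test recovered 93.5% between the CM (2835 genes), 87% for CRC-MPS CM against control (10019 genes) and 92.5% for ESC CM against control (10007 genes), with 1, 2 and 1 false calls. The changed genes were drawn from the more abundant ones only, so the recovery does not cover histone genes at low levels. The simulated noise was normal, and no selection of genes by p was simulated. A library in 2 tables differed between them by a median of 0.0450% to 0.558%, and values come from the table of the comparison.

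Any member could be named, with values in each library for variants and for the most abundant and most changed replication-dependent genes, and up to 4 genes of each supply role. Supply genes were ordered by role, and 14 names turned into dates were left out of name counts. Coordinates and stem-loops come from GENCODE 29, which held all 25 members, and promoters from RefSeq, GRCh38.p14. Alternatives were pseudocounts of 0.1, 1 and 5, a mean of at least 1 TPM, adjustment over 15000 or the listed genes, no minimum fold or a fold of 2, no trend, median-ratio scaling, a replicate block and each library left out. Python 3.11.15 was used for tables.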

Additional observations from a re-analysis of the deposited data

Results flagged for a closer look

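HIST1H1C, the gene of linker histone H1.2, was flagged because it was called in the direct comparison of the CM, which holds no control library. Its TPM lay above every control library in 3 of 3 libraries with CRC-MPS CM and below every control library in 3 of 3 with ESC CM. Groups did not overlap in 89.4% and 90.6% of all genes listed in these comparisons. Neither change against control was called (0.48 on the log2 scale for CRC-MPS CM, -0.37 for ESC CM). The lowest CRC-MPS CM library, at 32.7 TPM, lay close to the highest control library, at 32.2 TPM. Likewise the highest ESC CM library, at 22.8 TPM, lay close to the lowest control library, at 23.4 TPM. The difference between the CM had a log2 fold change of 0.85 (SE 0.11, adjusted p = 0.0272 by limma), and over 17 alternatives the adjusted p ranged between 0.00308 and 0.145. Groups of 3 libraries were not examined for single outlying libraries.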

How the results depend on the processing

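No member listed changed direction under any alternative run. Over single members, 738 values kept their call, 51 lost it and 20 gained one. With a minimum fold of 2, calls of replication-dependent genes were 0 between the CM, against control 7 with CRC-MPS CM and 6 in ESC CM, those of variants 0 and 1 against control, of supply genes 11 and 12, and of all listed genes 20 between the CM, 1723 and 1547. With no minimum fold there were 4 and 6 variants, 41 supply genes with CRC-MPS CM, and 8137 and 8313 of all genes. A pseudocount of 5 gave 6 and 6 replication-dependent genes against control, and 18, 2388 and 2211 of all genes. No trend and median-ratio scaling each gave 0 replication-dependent genes between the CM, and scaling gave 1 variant with CRC-MPS CM against control. Under scaling, 21 of 30 genes called between the CM were higher (70.0%) against 28 of 34 (82.4%), with the median log2 fold change at 0.06 in place of 0.15. Adjusted over listed genes alone, 219 of all genes were called between the CM, since fewer genes enter the adjustment.

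Leaving out each library gave 0 to 1, 10 to 12 and 11 to 13 replication-dependent calls (between the CM, CRC-MPS CM and ESC CM against control), 0 to 0, 2 to 3 and 2 to 4 variants, 0 to 0, 25 to 27 and 28 to 30 supply genes, and 9 to 151, 4353 to 4644 and 4030 to 4278 of all genes. Between the CM, where 34 genes were called in all, leaving out CRC-MPS CM replicate 1 gave 151, replicate 2 gave 12 and replicate 3 gave 9, while leaving out ESC CM replicate 1 gave 18, replicate 2 gave 9 and replicate 3 gave 13. Same-numbered libraries did not deviate together (correlations of -0.34 to 0.14). Deviations from means of 3 libraries cannot show whether the numbers pair libraries by experiment. With the replicate block 17 genes were called between the CM, and 12 and 13 replication-dependent genes against control. Depth is unknown, and values under 1 TPM are the least certain.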
